A study of Mus musculus with 10 samples.

Results

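The genes described here encode the subunits of the proteasome, its activators and the factors that assemble it. Members were taken by name: 50 gene symbols of the count files began with Psma to Psmg and a number, and 47 of the 24062 symbols remained after the immunoproteasome subunits Psmb8, Psmb9 and Psmb10 were set aside. The naming rule itself uses no measured value. The 47 symbols fell into the alpha ring of the core particle (8), its beta ring (8), the ATPases of the base (6), the other subunits of the base (3), the lid (8), activators and an inhibitor (6) and assembly chaperones (7). The remaining symbol, Psmc3ip, shares the prefix but encodes a partner of meiotic recombinases and is no proteasome gene; it is kept in the counts because the naming rule takes it.

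The proteasome degrades proteins that carry chains of ubiquitin. Its core particle is a barrel of alpha and beta rings whose beta subunits cut the substrate, and its regulatory particle has a base, with ATPases that unfold and thread the substrate, and a lid, which removes the ubiquitin chain. The subunits are made in fixed proportions by nearly every cell, dedicated chaperones put them together, and in stressed cells the transcription factor NRF1 (gene Nfe2l1) raises their genes together. In the suckling intestine, epithelial cells take up milk protein mainly through lysosomes, whereas the proteasome serves cytosolic and nuclear proteins.

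Jejunum from C57BL/6 mice at postnatal day 5 was profiled by RNA sequencing to ask how IL-23 made in the skin alters intestinal gene expression. The 5 WT libraries came from wild-type mice. The 5 KSR23 libraries came from mice that carry a cassette for both IL-23 subunits (p19 and p40) in the ROSA26 locus, silenced by a floxed STOP that is removed by a cre recombinase under the K14 promoter, so that the cassette is expressed mainly in keratinocytes. The study describes its controls as littermates. The sex, litter and sequencing batch of each library are not given in the sources used here.

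Library totals ran from 25.5 to 60.9 M counts, and 3 counts, the floor of detection, correspond to 0.0492 to 0.118 CPM (counts scaled to the size of the library). The members took 0.667% to 0.938% of all counts. Il12b, which encodes p40, had 0 to 5 counts in WT libraries and 9 to 40 in KSR23 libraries, and Il23a, which encodes p19, had 1 to 14 and 8 to 34. The libraries were not alike within a group. Replicate 1 of WT and replicate 3 of KSR23 were the highest or the lowest library of their group for 67.2% and 75.6% of the 9737 genes above 5 CPM. Replicates 4 and 5 of each group held that place for 8.53% to 18.4% of these genes, where 5 equivalent libraries would each hold it for 40%; they lay between replicates 1 to 3 for most genes and whether they are independent of them was not tested. Results are therefore also given with replicates 1 to 3 alone, and without WT replicate 1 and KSR23 replicate 3. In whole tissue, fewer cells of a type and less RNA per cell cannot be told apart.

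Marker genes of cell types also moved between the groups. Of 8 goblet and Paneth cell markers 6 were called higher in KSR23, and their summed level was 1308 to 1966 CPM in WT libraries and 2517 to 4152 CPM in KSR23 libraries. Of 10 enterocyte markers 2 were called higher and 3 lower. Of 9 crypt and proliferation markers 3 were called higher. Of 10 leukocyte markers 1 was called higher and 1 lower, of 9 smooth muscle and fibroblast markers 1 was called lower, and none of 6 enteric neuron and glia markers was called by edgeR's likelihood ratio test (1 at an unadjusted p under 0.05; the quasi-likelihood F test and DESeq2 called 1 each). All 5 of the pancreatic acinar markers that could be tested were called lower, with sums of 99.0 to 217.9 CPM in WT and 5.87 to 15.6 CPM in KSR23. Most of the WT sums came from Ctrb1 (73.2 to 94.5 CPM) and Cela1 (18.6 to 106.6 CPM). Cpa1, Cel and Prss2 were at most 0.404 CPM in WT replicates 2 and 3, and Pnlip and Amy2b had 0 to 3 counts. The paper describes digestive enzymes as made by the jejunum too, and whether these genes mark pancreatic cells here was not tested. The quasi-likelihood F test called fewer markers in all, among them 2 enterocyte, 3 acinar and 5 goblet and Paneth cell genes. In replicates 1 to 3 only 3 goblet and Paneth cell and 4 acinar markers passed the likelihood ratio test. No marker of any list was at 0 in all libraries. The part of cell composition in the results below was not tested.

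Of the 46 members tested, 2 were called higher in KSR23, both large non-ATPase subunits of the base (Psmd1 and Psmd2), and 1 was called lower, the testis-type alpha subunit Psma8 (likelihood ratio test of edgeR, adjusted p under 0.05). Thus 6.52% of the members were called, while 18.5% of all 17632 genes tested were called, 9.73% higher and 8.76% lower. The median log2 fold change (KSR23 over WT) was -0.01 over the members and 0.03 over all genes. At an unadjusted p under 0.05 there were 5 members, against 30.0% of all genes. The quasi-likelihood F test of edgeR called 2 members, Psmd1 and Psmd2, against 15.4% of all genes (8.47% higher and 6.91% lower). On simulated counts, in which genes varied independently, this test kept false calls under its threshold and the likelihood ratio test did not. The simulation lacked the library pattern that many genes share here, so it cannot show how often either test is wrong in these data. DESeq2 called 4 members, Psmg2 in addition to the 3, against 20.7% of all genes, and with 1 surrogate variable in the edgeR model 6 were called, against 35.4% of all genes. With replicates 1 to 3 alone no member was called by the likelihood ratio test or by the quasi-likelihood F test of edgeR, and 2 had an unadjusted p under 0.05 by each; 3.36% of all genes passed the likelihood ratio test in these 6 libraries. Without WT replicate 1 and KSR23 replicate 3 there were 4 calls, against 19.5% of all genes.

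**Figure D1:**
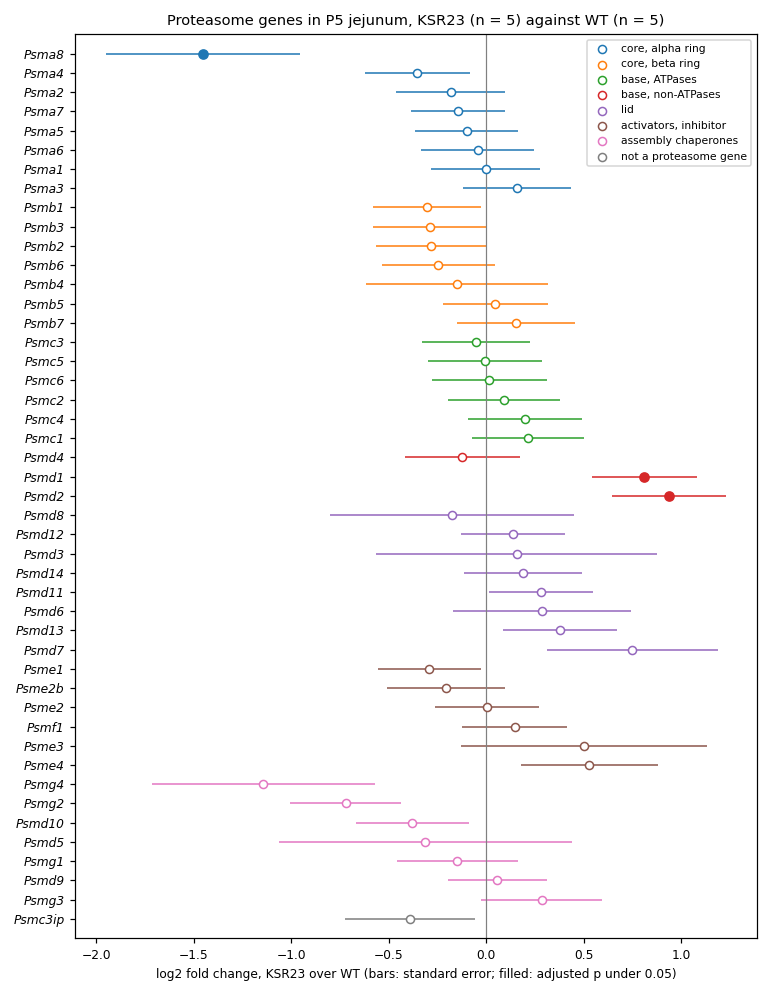
Log2 fold change (KSR23 over WT, horizontal axis) of the 46 members tested, ordered by role, with the standard error as bars and filled points for adjusted p under 0.05. Psmd1 (0.81) and Psmd2 (0.94) stand to the right of all other members, Psma8 (-1.45) farthest to the left.

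Of the 43 members that were not called, 38 had a log2 fold change between -0.5 and 0.5, and for 32 the 95% interval lay within a 2-fold change in either direction. For the remaining 11 the interval reached beyond 2-fold, so a difference of that size was compatible with the data of these genes.

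Psmd2 and Psmd1 encode the largest subunits of the regulatory particle, RPN1 and RPN2, scaffolds of the base that dock ubiquitin receptors and shuttle factors. Psmd2 (chr16:20651652-20663414, + strand, build GRCm38) had 243, 168.5, 132, 206 and 222.2 CPM in WT replicates 1 to 5 and 233.9, 444.6, 472, 280.4 and 429.3 CPM in KSR23 replicates 1 to 5. The groups overlapped in 1 library each, since KSR23 replicate 1 lay below WT replicate 1. The means were 194 ± 44.3 CPM in WT and 372 ± 107 CPM in KSR23 (SD, n = 5 each), a log2 fold change of 0.94 (SE 0.29, edgeR likelihood ratio test, adjusted p = 0.0120; quasi-likelihood F test, adjusted p = 0.0273). Psmd2 kept its call when any of the 10 libraries was left out, with values from 0.83 to 1.11. With replicates 1 to 3 alone the difference was 1.12 with an edgeR adjusted p of 0.309.

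Psmd1 (chr1:86064387-86139151, + strand) had 181.6, 157.1, 121, 170.2 and 164.1 CPM in WT and 182.4, 360.0, 307.6, 216.8 and 323.8 CPM in KSR23. The groups did not overlap, although the lowest KSR23 library (replicate 1) and the highest WT library (replicate 1) were almost equal. The means were 159 ± 23.0 CPM in WT and 278 ± 75.1 CPM in KSR23 (SD, n = 5 each), a log2 fold change of 0.81 (SE 0.27, edgeR adjusted p = 0.0204; quasi-likelihood F test, adjusted p = 0.0307). The call was lost without KSR23 replicate 5 (0.75, edgeR adjusted p = 0.0761), without WT replicate 3 (0.72, adjusted p = 0.0670) and without WT replicate 5 (0.82, adjusted p = 0.0605). With replicates 1 to 3 alone the value was 0.92 with an edgeR adjusted p of 0.427. Of the 75-base stretches of its transcript, 7.60% also occurred in the overlapping gene model Gm21972, and for Psmd2 15.1% occurred in Gm5422.

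Psmd4 encodes RPN10, a ubiquitin receptor and the other non-ATPase subunit listed with the base. Its means were 219 ± 36.2 CPM in WT and 201 ± 70.7 CPM in KSR23 (SD, n = 5 each). The log2 fold change was -0.12 with a 95% interval from -0.70 to 0.45, which lies within 2-fold either way. This interval takes the 5 libraries of each group as independent, which was not tested.

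Psma8 encodes the alpha subunit that replaces Psma7 in the proteasome of male germ cells, and it was barely detected in jejunum. In replicate order, the WT libraries held 27, 36, 29, 28 and 22 reads of it and the KSR23 libraries 26, 5, 13, 6 and 22. Scaled to library size these were 0.806 to 1.27 CPM in WT and 0.106 to 0.621 CPM in KSR23. The groups did not overlap in CPM, and every library lay above the floor of 3 counts. The log2 fold change was -1.45 (SE 0.50, edgeR adjusted p = 0.0253; quasi-likelihood F test, adjusted p = 0.0694). The call rested on several single libraries: it was lost without KSR23 replicate 1, 2 or 4 or WT replicate 2, 3, 4 or 5 (log2 fold changes from -1.50 to -1.16, edgeR adjusted p from 0.0520 to 0.0859), and with replicates 1 to 3 alone the edgeR adjusted p was 0.288. Psma8 had the lowest mean level of the tested members, so its difference concerns few molecules. Psma8 and Psmd1 were the only tested members whose groups did not overlap in CPM, while 14.4% of all genes tested did not overlap.

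**Figure D2:**
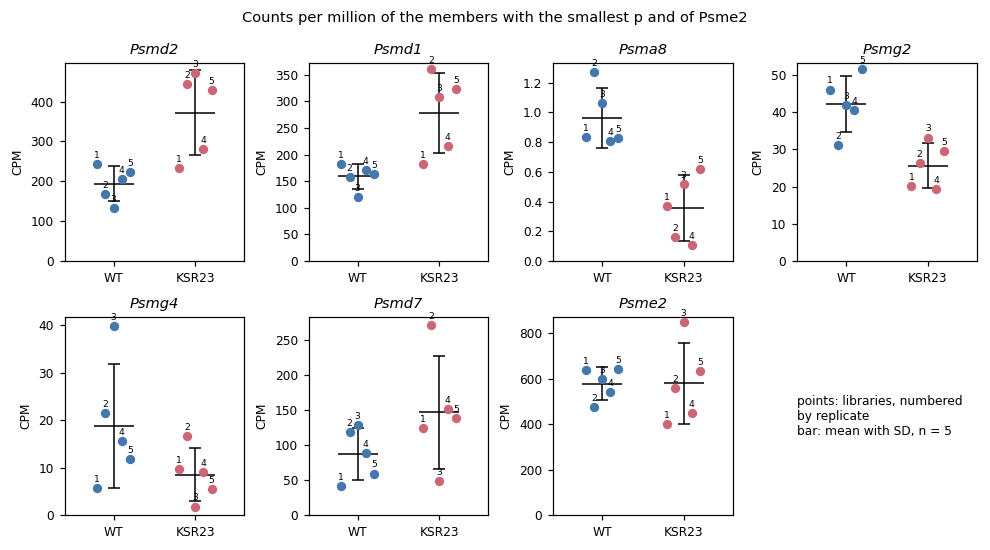
CPM (vertical axes, from 0) in each library of the 6 members with the smallest p and of Psme2, the member with the highest mean CPM; numbers give the replicate and bars the mean and SD (n = 5). Psmd1 and Psma8 show separate groups, while the KSR23 libraries of Psmd7 reach from 48.2 to 271 CPM.

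Among the assembly chaperones none of the 7 was called by edgeR's likelihood ratio test, 2 had an unadjusted p under 0.05, and DESeq2 called 1, Psmg2. Psmg2 encodes PAC2, which pairs with PAC1 (Psmg1) to guide the first alpha subunits into a ring. It had 46.0, 31.2, 41.8, 40.6 and 51.5 CPM in WT and 20.0, 26.3, 33.2, 19.2 and 29.5 CPM in KSR23. KSR23 replicate 3 lay above WT replicate 2, and the other KSR23 libraries lay below every WT library. The log2 fold change was -0.72 (SE 0.28, edgeR adjusted p = 0.0600; DESeq2, adjusted p = 0.0169).

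Psmg4 encodes PAC4, a chaperone that acts with PAC3 (Psmg3) in the same ring. It had 5.60, 21.5, 39.8, 15.5 and 11.8 CPM in WT and 9.70, 16.6, 1.79, 9.03 and 5.42 CPM in KSR23. Both groups spread over more than 5-fold and overlapped widely (log2 fold change -1.14, SE 0.57, edgeR adjusted p = 0.164). Without WT replicate 3 the value of Psmg4 was -0.67 (edgeR adjusted p = 0.485). The chaperones of the base were also not called by either edgeR test or by DESeq2 with all libraries. Psmd10 (gankyrin) had a log2 fold change of -0.38 (SE 0.29), Psmd9 (p27) 0.06 (SE 0.25) and Psmd5 -0.31 (SE 0.75). Psmd10 was called with 1 surrogate variable (edgeR adjusted p = 0.0494, 35.4% of all genes called). Scaled to the members, it was called by the quasi-likelihood F test (adjusted p = 0.0230, 16.8% of all genes called).

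In the core particle, the 7 somatic alpha subunits had log2 fold changes from -0.35 (Psma4) to 0.16 (Psma3), and the 7 tested beta subunits from -0.30 (Psmb1) to 0.15 (Psmb7). None of these 14 genes was called, and none had an unadjusted p under 0.05 by edgeR's likelihood ratio test, its quasi-likelihood F test or DESeq2. Psma4 was called with 1 surrogate variable in the edgeR model (-0.38, adjusted p = 0.03915), where 35.4% of all genes were called. When libraries were scaled to the members, 6 of the 14 passed the quasi-likelihood F test, against 16.8% of all genes. That scale is set by the members themselves and removes variation they share, so these shares are not a like comparison. Of the catalytic subunits, Psmb6, with caspase-like activity, was at 503 ± 97.2 CPM in WT and 424 ± 136 CPM in KSR23 (log2 fold change -0.25, 95% interval -0.81 to 0.32), Psmb5, with chymotrypsin-like activity, was at 65.7 ± 10.7 and 67.8 ± 17.4 CPM (0.05, interval -0.48 to 0.57), and Psmb7, with trypsin-like activity, at 106 ± 23.7 and 118 ± 37.04 CPM (0.15, interval -0.44 to 0.74; SD, n = 5 each). The levels of Psmb5 and Psmb7 are uncertain, since 40% and 24.1% of their 75-base stretches occur in other genes. Psmb11, the thymus-specific catalytic subunit, had 0 counts in all 10 libraries, which allows at most 0.0492 to 0.118 CPM per library, and was not tested.

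The 6 ATPases of the base, which form the ring that unfolds the substrate, lay closest together of all groups, with log2 fold changes from -0.05 (Psmc3) to 0.21 (Psmc1) and none called. In the lid, 7 of 8 genes had values above 0 (median 0.23), none was called and none had an unadjusted p under 0.05 by the 3 tools. The deubiquitinase subunit Psmd14 was at 174 ± 39.96 CPM in WT and 198 ± 65.0 CPM in KSR23 (SD, n = 5 each; log2 fold change 0.19, 95% interval -0.41 to 0.78). Psmd7, its structural partner, had the largest value of the lid (0.75, SE 0.44, edgeR adjusted p = 0.247), with 41.8, 118, 129, 88.4 and 59.4 CPM in WT and 125, 271, 48.2, 151 and 138 CPM in KSR23. KSR23 replicate 3 lay below 4 of the 5 WT libraries. Single libraries moved the value of Psmd7 either way: without KSR23 replicate 3 it was 0.97 and passed the threshold (edgeR adjusted p = 0.04996), and without KSR23 replicate 2 it was 0.46 (adjusted p = 0.538). Without both WT replicate 1 and KSR23 replicate 3 it was 0.79 and not called (adjusted p = 0.0895).

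Of the activators and the inhibitor, Psme1 and Psme2, which encode the cap PA28 alpha and beta, and Psme3, Psme4 and the inhibitor gene Psmf1 were not called by either edgeR test or by DESeq2 with all libraries. When libraries were scaled to the members, the quasi-likelihood F test called Psme1 lower (adjusted p = 0.0294), as it called 16.8% of all genes. Psme2 had the highest mean CPM of the members, with 638.9, 473.8, 596.5, 539.8 and 641.7 CPM in WT and 402.1, 560.3, 848.1, 448.9 and 634.9 CPM in KSR23. The groups overlapped throughout, with a log2 fold change of 0.00 and a 95% interval from -0.52 to 0.53. Psme2b, a gene similar to Psme2, was at 10.15 ± 1.84 CPM in WT and 8.81 ± 2.43 CPM in KSR23; since 60.2% of its 75-base stretches also occur in Psme2, its level is uncertain. The same holds for Psme2, of whose stretches 51.7% occur in Psme2b, and which may be counted too low. The largest value of the group was that of Psme4 (PA200, a nuclear activator), at 0.53 (SE 0.35, edgeR adjusted p = 0.322).

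Beyond the comparison of the groups, the members fell into 2 sets by how they varied between libraries of the same group. In 8 members, namely Psmb4, Psmd3, Psmd5, Psmd6, Psmd7, Psmd8, Psme3 and Psmg4, the highest library of each group exceeded the lowest by more than 3-fold, by up to 20.0-fold in WT and 16.1-fold in KSR23 (both Psmd5). All 8 were lowest in WT replicate 1 and in KSR23 replicate 3. Psmd5 had 4.02, 80.6, 78.5, 47.6 and 18.0 CPM in WT and 80.5, 28.2, 5.01, 56.8 and 13.7 CPM in KSR23. Summed over the 8 genes the levels were 189.5, 934.4, 1082, 602.3 and 371 CPM in WT and 877.4, 1070, 170, 803.7 and 527.2 CPM in KSR23. This unevenness was not particular to proteasome genes: 20.5% of the 9737 genes above 5 CPM exceeded 3-fold in both groups, and 80.3% of those were lowest in the same pair of libraries.

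The other 37 members above 5 CPM, Psmc3ip among them, mostly varied in the opposite way, although Psmb5 and Psmg1 were lowest in the same pair of libraries as the uneven genes. Their sum was 8712, 6121, 7245, 7182 and 8549 CPM in WT and 4904, 8215, 10120, 5735 and 8607 CPM in KSR23, so that it was highest in WT replicate 1 and KSR23 replicate 3. The deviations of log2 CPM from the group mean had a median pairwise Pearson r of 0.91 among these 37 genes, 0.92 among the 8 uneven genes and -0.64 between the sets. The same split of the other genes above 5 CPM, which itself uses the spread between libraries, gave 0.21 among 7705 even genes, 0.86 among 1987 uneven genes and -0.51 between them, so the values of the uneven members and between the sets were near those of other genes. These correlations run over 10 libraries whose scaling the genes share and are given as a description. With RLE size factors the median among the 37 genes was 0.92, and with library totals alone 0.84.

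**Figure D3:**
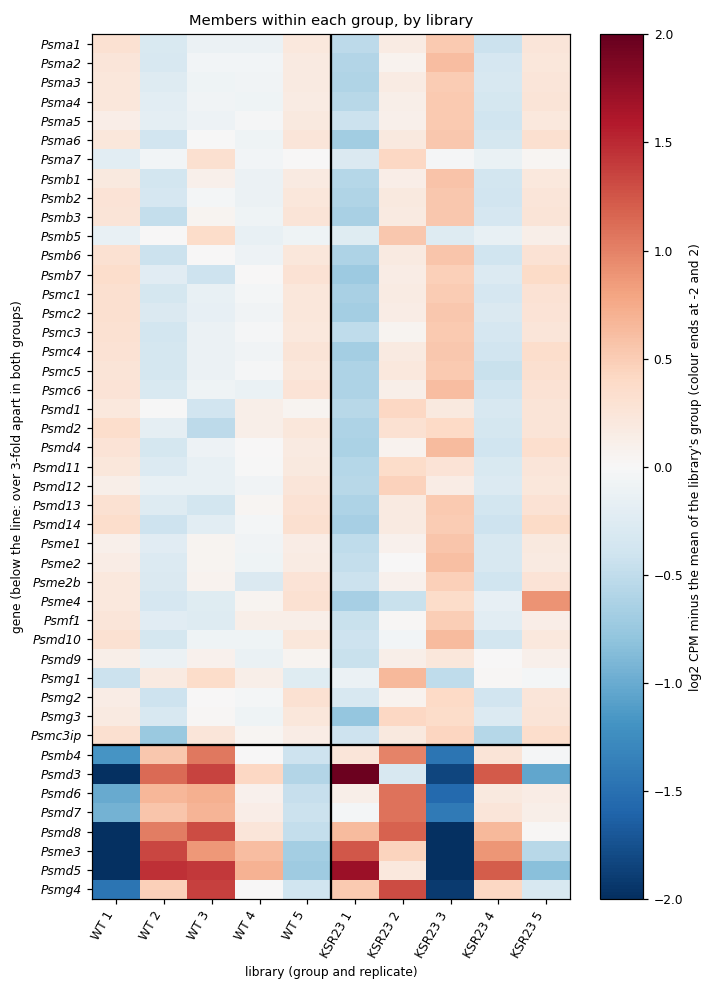
Deviation of log2 CPM from the mean of the library's own group (colour) for 45 members (vertical) in the 10 libraries (horizontal). The 8 genes below the line are low in WT replicate 1 and KSR23 replicate 3, where most of the 37 genes above it are high.

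Near the start of the transcript the GC content of the uneven genes lay within the range of the others, with a higher median. Over the first 150 bases of the principal transcript it had a median of 69% (62% to 74.7%), compared with 60.7% (39.3% to 76.7%) in the other 37 members. Among genes outside the family, those with the same library pattern had a median of 68.7% and the remaining genes above 5 CPM 62.7%. Over whole transcripts the medians were 51.0% and 49.3% for the members, and 53.8% and 49.3% for the other genes. The part of GC content in the pattern was not tested.

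Because the 37 genes varied together, the level of each was also taken relative to the median of the others in the same library, which does not depend on library scaling. This measure was chosen after the data were examined. It is set by the members themselves and removes variation they share, so their shares and those of all genes are not a like comparison. The median SD of this relative level within a group was 0.11 on the log2 scale. The groups did not overlap for 13 of the 37 genes (35.1%), close to the 30.4% of the 7742 genes above 5 CPM and under the 3-fold limit that did not overlap when scaled in the same way. For Psmd2 the relative level was 0.21, 0.20, -0.20, 0.27 and 0.12 in WT and 0.95, 1.05, 0.87, 0.97 and 0.85 in KSR23. Every KSR23 library lay above every WT library, with a difference of 0.82 between the means. For Psmd1 it was -0.32, 0.10, -0.33, -0.06 and -0.40 in WT and 0.59, 0.75, 0.25, 0.60 and 0.44 in KSR23, a difference of 0.73. The lid subunit Psmd13 was the other gene whose relative level was higher in KSR23 without overlap, by 0.25.

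The 10 genes whose relative level was lower in KSR23 without overlap were Psmg2 (-0.82), Psma4 (-0.51), the chaperone Psmd10 (-0.50), Psmb3 (-0.48), Psmb1 (-0.45), Psme1 (-0.44), Psmb2 (-0.44), Psmb6 (-0.39), Psma2 (-0.34) and Psmd4 (-0.31). Relative levels were lower in KSR23 for 6 of 7 alpha and 5 of 6 beta subunits, with medians of -0.23 and -0.41. Under this scaling no alpha or beta gene of the 37 was called by the likelihood ratio test of edgeR, its quasi-likelihood F test called 2 alpha (Psma2 and Psma4) and 4 beta subunits (Psmb1, Psmb2, Psmb3 and Psmb6), and none was called in replicates 1 to 3. The 4 lid subunits among the 37 genes had a median of 0.11, and none of them was called under this scaling by either edgeR test. Over all 37 genes 64.9% were lower, and over the 7742 genes 49.4%. When all libraries were scaled to these 37 genes and all genes were tested again, edgeR's likelihood ratio test called 4 members (Psmd1 and Psmd2 higher, Psma8 and Psmg2 lower), against 16.0% of all genes. The quasi-likelihood F test of edgeR called 12 under the same scaling, 2 higher and 10 lower, against 16.8% of all genes. In replicates 1 to 3 the edgeR likelihood ratio test gave 0 calls under this scaling, against 2.81% of all genes, with 2 members at an unadjusted p under 0.05. The members set this scale, so their shares and those of all genes are not a like comparison.

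**Figure D4:**
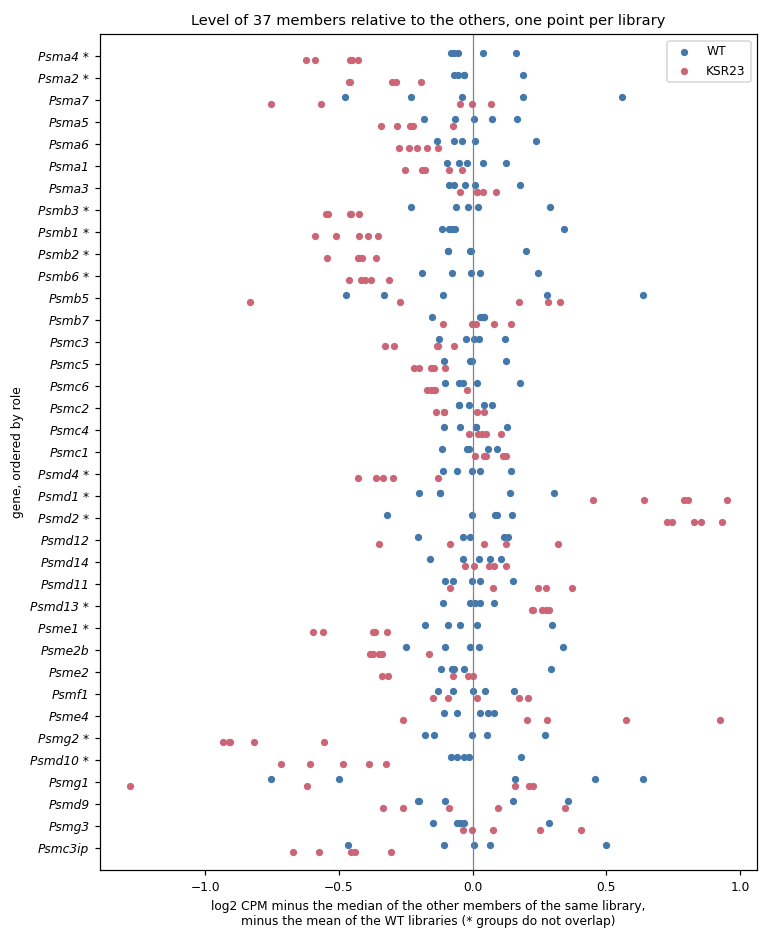
Level of 37 members relative to the median of the others in the same library (horizontal axis, log2, set to 0 at the WT mean), 1 point per library. Psmd1 and Psmd2 lie 0.73 and 0.82 to the right in KSR23, while Psmg2 lies 0.82 to the left; asterisks mark the 13 genes whose groups do not overlap.

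Levels were compared between genes as CPM per kilobase of the principal transcript. In WT the highest were Psmb6 with 630 ± 122, Psme2 (uncertain for its shared stretches) with 601 ± 74.3, Psmb2 with 508 ± 86.5, Psme1 with 419 ± 42.6 and Psma7 with 379 ± 53.8 CPM per kilobase (SD, n = 5). Psmb6 and Psme2 did not differ beyond their spread. Of the 26 core, base and lid subunits among the 37 genes, Psmb6 exceeded Psmd1 (51.0 ± 7.38 CPM per kilobase) 12.4-fold, or, per kilobase of coding sequence, Psmb2 exceeded Psmd1 13.0-fold. The ATPases ranged from 70.6 ± 12.7 (Psmc6) to 172 ± 31.2 CPM per kilobase (Psmc3). The chaperones lay lower, from 10.4 ± 7.88 (Psmd5) to 59.4 ± 10.9 CPM per kilobase (Psmd10). In KSR23 Psmd1 was at 89.4 and Psmd2 at 126 CPM per kilobase, values within the range of the other core, base and lid subunits.

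**Figure D5:**
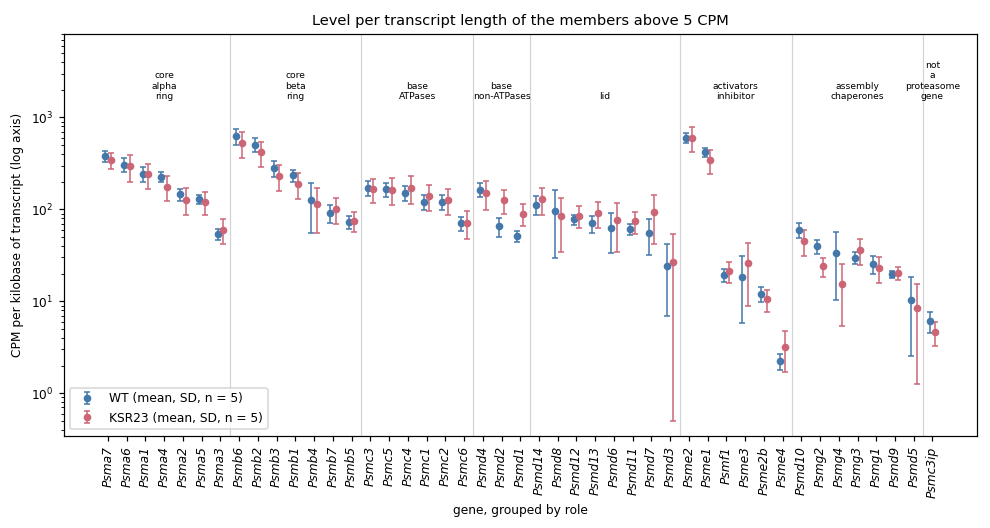
CPM per kilobase of transcript (log axis) of the 45 members above 5 CPM, grouped by role, as mean and SD of 5 libraries per group. Psmb6 (630 in WT) and Psme2 (601) reach the highest levels, and Psme4 (2.22) lies among the lowest.

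Promoters were examined because the members vary together. RefSeq sequences of the 250 bases before the start were at hand for 39 of the 47 members (GRCm38.p6). The letters CCAAT, on either strand, occurred in 14 of these 39 genes (35.9%) and in 37.5% of 27025 genes. The letters TGACNNNGC, the core of the antioxidant response element bound by NRF1 and NRF2 (either strand), occurred in 5 of 39 (12.8%), namely Psmb5, Psmb6, Psmc6, Psmd9 and Psmd12, and in 11.5% of all genes. The shares of the members were thus near those of all genes. Psmd1 and Psmd2 held neither motif in this window. The windows of Psmd2, which was called higher, of its partner Psmd4, which was not, and of Psmb6, the highest core subunit per kilobase, are shown from 5′ to 3′ as the gene is read, with motif letters in capitals: chr16:20651402-20651651 (+ strand) for Psmd2, chr3:95042615-95042864 (− strand) for Psmd4 and chr11:70525107-70525356 (+ strand) for Psmb6.
Psmd2: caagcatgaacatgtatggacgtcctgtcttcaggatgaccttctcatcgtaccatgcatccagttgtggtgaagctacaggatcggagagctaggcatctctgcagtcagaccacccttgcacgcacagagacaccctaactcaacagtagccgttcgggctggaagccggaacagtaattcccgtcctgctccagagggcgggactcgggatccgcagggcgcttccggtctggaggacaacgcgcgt
Psmd4: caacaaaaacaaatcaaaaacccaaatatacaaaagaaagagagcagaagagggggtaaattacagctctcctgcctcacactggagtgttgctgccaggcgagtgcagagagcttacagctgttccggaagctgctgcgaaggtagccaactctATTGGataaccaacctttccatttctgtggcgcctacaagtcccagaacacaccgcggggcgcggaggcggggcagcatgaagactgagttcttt
Psmb6: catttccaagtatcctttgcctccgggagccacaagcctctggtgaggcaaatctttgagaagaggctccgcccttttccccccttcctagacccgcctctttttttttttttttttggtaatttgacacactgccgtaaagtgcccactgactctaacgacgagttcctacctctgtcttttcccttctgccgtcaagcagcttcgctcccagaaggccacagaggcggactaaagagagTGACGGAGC
The Psmd4 window holds CCAAT in reverse (ATTGG), and the Psmb6 window ends with TGACGGAGC directly before the start.

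The immunoproteasome subunits, which replace the catalytic beta subunits in cells exposed to interferon, were also not called. Psmb8 was at 92.4 to 389.9 CPM in WT and 113 to 448.1 CPM in KSR23 (log2 fold change 0.29, SE 0.45), Psmb9 at 97.0 to 142 and 70.7 to 107 CPM (-0.39, SE 0.25) and Psmb10 at 247 to 359 and 209.9 to 296 CPM (-0.17, SE 0.24). All 3 overlapped between the groups, and none had an unadjusted p under 0.05 by either edgeR test (1 by DESeq2). Psmb8 shared the pattern of the uneven members: it was lowest in WT replicate 1 and KSR23 replicate 3 and spread 4.22-fold in WT and 3.98-fold in KSR23. Its difference was thus the least precisely measured of the 3.

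Other genes of the pathway were taken from lists of fixed membership. Of 9 tested proteasome-associated genes none was called by either edgeR test, 2 had an unadjusted p under 0.05 by the likelihood ratio test, and DESeq2 called 1. The smallest adjusted p by the likelihood ratio test was that of Usp14, a deubiquitinase that binds Psmd2 (log2 fold change 0.66, SE 0.27, adjusted p = 0.0699). Of 9 regulators of proteasome genes, which include Nfe2l1, none was called by edgeR or DESeq2, and 1 had an unadjusted p under 0.05 by each tool; Nfe2l1 had a log2 fold change of 0.57 (SE 0.37). Of 16 ubiquitin and shuttle genes 2 were called higher and 1 lower, a share near the 18.5% of all genes.

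The 2 higher genes encode the enzymes that activate ubiquitin for conjugation. Uba1 was at 98.1 to 159.8 CPM in WT and 163 to 300.3 CPM in KSR23, and Uba6 at 5.32 to 12.6 and 13.0 to 29.5 CPM. Neither overlapped between the groups, with log2 fold changes of 0.79 (SE 0.26, edgeR adjusted p = 0.0212) and 1.25 (SE 0.35, adjusted p = 0.00411). The lower gene was the polyubiquitin gene Ubb, at 32.6 to 60.8 CPM in WT and 19.8 to 40.6 CPM in KSR23 (-0.97, SE 0.31, edgeR adjusted p = 0.0154), and its groups overlapped. With replicates 1 to 3 alone none of the 3 passed (edgeR adjusted p from 0.2995 to 0.576). Of 7 reference targets of NRF2, 1 was called, a share not above the 18.5% of all genes, and the median log2 fold change of the list was 0.55, in the opposite direction to the called gene. This gene, Gclm, a subunit of the enzyme that limits glutathione synthesis, was at 9.69 to 31.15 CPM in WT and 2.62 to 5.64 CPM in KSR23 (log2 fold change -2.11, SE 0.39, edgeR adjusted p = 8.03e-06). With replicates 1 to 3 alone its edgeR adjusted p was 0.0761.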

How the data were processed

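Total RNA of jejunum (5 WT and 5 KSR23 mice, replicate numbers from the sample titles) was primed with oligo-dT, copied by a low-input PCR kit, tagged with a transposase kit and read as single-end 75-base reads. The protocol names no molecular identifiers, and the floors given here thus reflect counting error alone. The deposited values were raw counts: the authors mapped reads to mm10 with TopHat2 2.1.0 and counted them per gene with HTSeq 0.6.1p1, keeping reads strictly within gene models (versions from the submitters' processing notes, which also list edgeR 3.18.1). Between 8.62 and 17.1 M multiply aligned reads of each library were assigned to no gene, so members with a close copy elsewhere are counted too low. Whether counting used strand is not given in the sources used here, so overlapping genes may share counts. Totals of reads outside genes (4.79% to 7.52% of the reads listed) were not used.

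TMM scaling and negative binomial models were computed in edgeR 4.0.16 (R 4.3.3) on the 17632 genes that reached 5 counts in any library, with group as the only term and the likelihood ratio test that the study names. The study's filter at 5 counts can also be read as applying to every library, which was run as an alternative and called 4 members, Psmg2 included (edgeR adjusted p = 0.0355). Benjamini-Hochberg adjustment of p-values ran over all genes, and a gene is called at an adjusted p under 0.05. Log2 fold changes are KSR23 over WT, and 95% intervals are 1.96 SE on either side, taking all libraries as independent. Both edgeR tests were tested on simulated data, in which the likelihood ratio test made false calls well above the nominal rate and the quasi-likelihood F test did not, so calls by the likelihood ratio test alone are less certain. Alternatives were the quasi-likelihood F test, DESeq2 1.42.0, RLE size factors, library totals, other filters, subsets of libraries, the replicate number as a block, 1 surrogate variable (sva 3.50.0) and scaling to 37 members. Replicates are separate samples by the labels, and p-values measure the spread between these libraries.

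Positions, lengths and GC content came from the GENCODE mouse M21 annotation (GRCm38, the build of the files), with the APPRIS principal transcript of each gene. Promoter sequences came from RefSeq. The members, role groups and lists were chosen with earlier results of these data known. Members are given in each library if called, or, as fewer than 6 were called, if among the 6 with the smallest p, and the members with the highest and lowest mean CPM and the largest absolute log2 fold change were added. The other genes shown as examples (Psmd4, Psmd5, the catalytic subunits, Psmd14, Usp14, Nfe2l1 and the like) were chosen after their values were seen.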

Additional observations from a re-analysis of the deposited data

Results flagged for a closer look

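Of 92 groups of 5 libraries (46 members in each genotype), 1 held a library that stood apart from the others by Dixon's criterion, where chance alone would give about 1 in 20 groups (4.6 here). Psmc3ip, the gene that is no proteasome gene, was lowest in WT replicate 2 with 4.56 CPM, and the next library was at 7.78 CPM. The gap was 0.723 of the range of the group on the log2 scale, above the limit of 0.71.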

How the results depend on the processing

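The calls moved with the libraries used and with the model and scaling. With 3 members called, 2 higher and 1 lower, 3 calls among other proteasome and ubiquitin genes and 2 members without overlap, leaving out single libraries gave 1 to 5, 1 to 3, 0 to 2, 1 to 5 and 2 to 4, and medians of the members' log2 fold change from -0.07 to 0.15. In these runs 3 to 6 members and 25.7% to 33.0% of all genes had an unadjusted p under 0.05 by the likelihood ratio test. Replicates 1 to 3 alone gave 0 members, 0 higher, 0 lower and 0 other genes under both edgeR tests and under scaling to the members. By the quasi-likelihood F test with all libraries 0 members were lower. The lower calls rose to 2 with 5 or more counts in every library, DESeq2, RLE size factors, library totals alone, scaling to the members and without WT replicate 1 and KSR23 replicate 3, Psmg2 being added. Members without overlap numbered 1 with RLE size factors, 5 with library totals alone and 4 without the 2 libraries. The share over all genes was taken only with TMM scaling of all libraries (14.4%). A surrogate variable, chosen after seeing the data like the scaling to members and the removal of the 2 libraries, gave 6 members (4 lower) and 12 other genes, against 35.4% of all genes. The quasi-likelihood F test under scaling to the members gave 12 members (10 lower) and 7 other genes, against 16.8% of all genes under a scale that the members set. Whether replicate numbers pair the libraries is not known. Deviations of same-numbered libraries had r of -0.73, 0.40, -0.68, 0.35 and 0.47, and only replicate 4 matched its own number best. These values carry the pattern of WT replicate 1 and KSR23 replicate 3, so they cannot decide it. With the replicate block 1 member was called and 0 higher (Psmd2 0.92, edgeR adjusted p = 0.0946; Psmd1 0.78, adjusted p = 0.128), and with the block and the quasi-likelihood F test 0 members, 0 higher, 0 lower and 0 other genes (4 members at an unadjusted p under 0.05). Psme2, near 0 with all libraries, took the opposite sign with the surrogate variable (-0.0246), the stricter filter (-0.0218), DESeq2 (-0.0333), RLE size factors (-0.0333), library totals alone (-0.12), the replicate block (-0.0394 by both tests), the 2 libraries left out (-0.14), scaling to the members (-0.14 by both tests, -0.17 with replicates 1 to 3) and when single libraries were left out (-0.18 to 0.16). The cause of these changes was not tested. Psmd1, Psmd2, Psmd7, Psmg2, Psmg4 and Psma8 kept their sign in every alternative run. Medians of the members and of the groups moved with scaling by less than the spread between libraries, but those of the base ATPases and of the activators changed sign (0.05 and 0.07, against -0.08 and -0.05 with library totals alone). Depth limits Psma8, with 5 to 36 counts per library, and Psmb11, at 0.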
